A study of Mus musculus with 4 samples.

Results

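The immediate early genes Fos, Fosb, Junb, Egr1, Egr2, Egr4, Ier2, Ier3, Nr4a1 and Arc were followed in mouse brain sections in which an inoculated tumour had been resected. These 10 genes were taken by their symbols from the feature tables, out of 20457 features with counts over tissue. The sections were formalin-fixed and paraffin-embedded, and RNA was read by hybridised, ligated probe pairs captured on an array of barcoded spots. One group, TREAT, came from mice given a hydrogel, and the other, Vehicle, from mice not given it, both at day 11 and both carrying the inoculated and resected tumour. The mouse strain, age, tumour line and composition of the hydrogel are not given in the sources used here. Each group held 2 capture areas, TREAT 1+4 and TREAT 2+3 against Vehicle 1+4 and Vehicle 2+3, and each area carried 2 pieces of tissue. The series states 4 animals in all, and which piece came from which animal is not given. The p-values therefore rest only on the spread between these areas, estimated for each gene with information shared over all genes.

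Immediate early genes are transcribed within minutes of a stimulus, without new protein synthesis, from factors that are already present on their promoters. Growth factor signalling through the mitogen-activated kinases and serum response factor, and calcium and cyclic AMP signalling through CREB, are the classical routes. In neurons the genes are widely used as marks of recent synaptic activity, while in growing tumours, inflamed tissue and reactive glia they follow growth factor and stress signals. Fos and Fosb encode partners of Jun proteins in the AP-1 dimer, and Junb encodes one of those Jun proteins. Egr1, Egr2 and Egr4 encode zinc finger transcription factors, and Nr4a1 encodes an orphan nuclear receptor. Ier2 encodes a small nuclear protein, Ier3 a stress-induced regulator of survival, and Arc a cytoskeleton-associated protein that moves into dendrites and takes AMPA receptors off the synapse.

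Promoter windows of 5 members, 250 bases before to 50 bases after the start of transcription, are shown because these members took different courses in the sections. Junb and Nr4a1 fell in the TREAT tumour region, Egr4 rose there, and Fos peaked outside the tumour region. Egr2 was the only searched member with a CArG box, the letters bound by serum response factor, in its window. Sequences are those of RefSeq on GRCm38.p6, and capitals mark TGACG, the core of a CREB site, in either orientation (CGTCA on the other strand) and the CArG box.
Fos, chr12:85473640-85473939, plus strand: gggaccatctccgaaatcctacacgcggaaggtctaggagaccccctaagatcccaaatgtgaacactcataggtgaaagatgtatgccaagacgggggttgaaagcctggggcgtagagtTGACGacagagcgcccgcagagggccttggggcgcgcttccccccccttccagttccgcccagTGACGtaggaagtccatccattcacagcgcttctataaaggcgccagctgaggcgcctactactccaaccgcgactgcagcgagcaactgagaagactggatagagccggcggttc
Junb, chr8:84978699-84978998, minus strand: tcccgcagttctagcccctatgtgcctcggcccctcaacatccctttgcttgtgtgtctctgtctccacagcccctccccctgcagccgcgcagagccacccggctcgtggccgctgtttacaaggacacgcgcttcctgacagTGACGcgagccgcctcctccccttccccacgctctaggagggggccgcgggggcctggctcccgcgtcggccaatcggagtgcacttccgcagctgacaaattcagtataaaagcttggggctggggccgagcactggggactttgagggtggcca
Egr4, chr6:85513540-85513839, minus strand: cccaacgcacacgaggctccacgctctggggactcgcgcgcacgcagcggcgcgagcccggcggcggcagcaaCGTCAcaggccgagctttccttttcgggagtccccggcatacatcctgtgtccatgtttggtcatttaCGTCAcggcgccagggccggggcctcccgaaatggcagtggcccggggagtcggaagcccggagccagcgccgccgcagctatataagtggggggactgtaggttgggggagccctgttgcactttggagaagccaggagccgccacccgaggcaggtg
Nr4a1, chr15:101266596-101266895, plus strand: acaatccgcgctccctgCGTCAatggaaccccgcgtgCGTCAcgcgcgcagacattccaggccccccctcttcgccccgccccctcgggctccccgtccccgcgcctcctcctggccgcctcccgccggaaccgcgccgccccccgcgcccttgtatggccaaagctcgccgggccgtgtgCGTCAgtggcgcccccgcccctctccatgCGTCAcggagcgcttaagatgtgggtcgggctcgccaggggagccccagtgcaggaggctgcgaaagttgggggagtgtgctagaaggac
Egr2, chr10:67537680-67537979, plus strand: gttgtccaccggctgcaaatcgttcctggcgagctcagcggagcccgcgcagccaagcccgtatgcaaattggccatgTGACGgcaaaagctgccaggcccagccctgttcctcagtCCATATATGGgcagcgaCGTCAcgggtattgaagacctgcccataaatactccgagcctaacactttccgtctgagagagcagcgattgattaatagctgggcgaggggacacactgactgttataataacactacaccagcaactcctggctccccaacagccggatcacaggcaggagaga

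TGACG was found 4 times in the Nr4a1 window, 2 times each in the windows of Fos, Egr4 and Egr2, and 1 time in that of Junb. Of 32851 promoter windows of this length, 20.8% held TGACG on either strand. The windows of Fosb, with 1 TGACG, and Ier3, with none, were searched as well, so 6 of the 7 members with a window held it. Egr1, Ier2 and Arc were not searched, so nothing is said of their promoters. The CArG box was found in 4 of the 5 RefSeq windows of Egr2, of which the last is shown, and in none of the other 6 members' windows, against 1.63% of all windows. The Egr2 windows that start at 67537619, 67537620 and 67537680 overlap and hold the same CArG box. The count of windows is thus not a count of sites. The palindrome TGACGTCA (1.79% of all windows) and the AP-1 site TGANTCA (7.81% of all windows) were found in none of the 7 members' windows. TGACG lies within TGACGTCA, so these 2 searches overlap. A match describes the letters in the window and does not show that a factor was bound. Bases outside the windows and looser forms of the CArG box were not searched, so an absence holds for these windows only.

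Total UMIs over tissue were 56150597 and 51081123 in TREAT 1+4 and 2+3, against 34202695 and 45960125 in Vehicle 1+4 and 2+3. Spots with at least 500 UMIs were clustered over all areas with the 10 members and related early genes left out of the clustering. The tumour region was made of 2 clusters with proliferation or mesenchymal glioma markers among their leading genes. It held 178 and 556 spots in TREAT 1+4 and 2+3, against 930 and 1263 spots in Vehicle 1+4 and 2+3. Cluster 7, with Mki67, Top2a and Nusap1 among its leading genes, gave 177 and 551 of the TREAT spots, while cluster 0 gave 930 and 1253 of the Vehicle spots, so the groups' tumour regions consisted of different clusters. Neuronal regions were the clusters with markers of cerebral cortex, hippocampus, thalamus, hypothalamus or striatum, 2102 and 1230 spots in TREAT and 1332 and 1329 in Vehicle. A further cluster, led by Klk6, Apod and Serpina3n and with Gfap, C4b and microglial genes, met no region's marker rule and is called here the reactive glial cluster. The array positions overlap by design: 1825 of 4534 spot barcodes lay on tissue in all 4 areas, and these mark positions, not cells.

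The 10 genes divided into a set that was higher in the tumour region and a set that was higher in neuronal regions. Ier2, Junb, Egr2 and Ier3 were higher in the tumour region than in neuronal regions in 4 of 4 areas, and Arc, Egr4, Egr1 and Fosb were lower in 4 of 4 areas. Fos and Nr4a1 took neither course in every area. For comparison, 44.1% of 16957 genes with at least 1 mean CPM were higher in the tumour region in all 4 areas, and 35.7% were lower in all 4, so both counts of 4 members lie near the background. These are descriptions without a test, since the regions were drawn from the same spots. Levels are UMI counts scaled to the region's total (CPM), and a spot holds several cells, so fewer expressing cells and less RNA per cell cannot be told apart.

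Ier2 had the greatest difference among the members that were higher in the tumour region. Its tumour level was 111.6 and 121.6 CPM in TREAT 1+4 and 2+3, against neuronal levels of 17.6 and 31.2 CPM in the same areas. In Vehicle 1+4 and 2+3 the tumour region had 251.2 and 249.5 CPM of Ier2, and neuronal regions 25.9 and 35.6 CPM. The lowest tumour value lay above the highest neuronal value, and the log2 difference averaged 2.68 ± 0.54 (SD, n = 4 areas).

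Junb, the Jun protein of the set, had 189.4 and 213.1 CPM in the TREAT tumour region and 410.8 and 308.5 CPM in the Vehicle tumour region. Neuronal regions had 49.2 and 106.5 CPM of Junb in TREAT and 77.1 and 72.6 CPM in Vehicle, a log2 difference of 1.86 ± 0.61 (SD, n = 4). All tumour values lay above all neuronal values. Egr2, low in neuronal regions, had 16.5 and 12.3 CPM in the TREAT tumour region and 16.9 and 15.1 CPM in the Vehicle tumour region, while its neuronal levels ran between 2.63 and 3.85 CPM, a log2 difference of 2.16 ± 0.34 (SD, n = 4). At 1 array step outside the tumour region Egr2 was still at 17.2 and 10.6 CPM in TREAT 1+4 and 2+3 and 19.0 and 14.2 CPM in Vehicle 1+4 and 2+3, a range that overlaps with that inside it.

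Ier3 had 57.4 and 71.4 CPM in the TREAT tumour region and 134.3 and 124.7 CPM in the Vehicle tumour region, against neuronal levels between 24.3 and 35.3 CPM. The tumour values did not overlap with the neuronal values, and the log2 difference was 1.57 ± 0.71 (SD, n = 4). In both TREAT areas Ier3 was slightly higher in the reactive glial cluster than in the tumour region, at 60.6 and 73.9 CPM. In both Vehicle areas the tumour region had the higher level.

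Arc and the Egr genes of neurons ran the other way. Arc had 11.9 and 9.30 CPM in the TREAT tumour region and 13.1 and 15.6 CPM in the Vehicle tumour region. Its neuronal levels were 122.2 and 274.3 CPM in TREAT and 151.0 and 128.5 CPM in Vehicle, between 8.21 and 29.5 times the tumour level of the same area. The cerebral cortex held the highest Arc level of the named regions in every area, 311.2 and 396.4 CPM in TREAT and 263.2 and 266.3 CPM in Vehicle, followed by the hippocampus at 155.9 and 210.0 CPM in TREAT and 111.2 and 191.0 CPM in Vehicle. The thalamus had no more than 48.6 CPM of Arc in any area.

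Egr1 had 4.77 and 6.19 CPM in the TREAT tumour region and 11.7 and 9.52 CPM in the Vehicle tumour region, against neuronal levels between 49.9 and 80.4 CPM, a log2 difference of -3.07 ± 0.56 (SD, n = 4). In the cerebral cortex Egr1 stood between 104.1 and 112.7 CPM in all 4 areas, but these sums join pieces that differed, with 136.0 and 70.6 CPM in those of TREAT 2+3 and 84.3 and 245.4 CPM in those of Vehicle 2+3. Egr4 had 4.77 and 2.62 CPM in the TREAT tumour region and 0.66 and 0.77 CPM in the Vehicle tumour region, which rest on 28 and 53 UMIs and on 13 and 23 UMIs. Its neuronal levels were 17.2 and 22.8 CPM in TREAT and 14.2 and 11.7 CPM in Vehicle, a log2 difference of -3.33 ± 1.13 (SD, n = 4). Fosb had tumour levels between 3.40 and 6.31 CPM and neuronal levels between 7.40 and 17.6 CPM, so the ranges did not overlap, with a log2 difference of -1.24 ± 0.82 (SD, n = 4).

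Fos was not a gene of either side. Its tumour level was 22.5 and 29.0 CPM in TREAT and 32.8 and 23.8 CPM in Vehicle, and its neuronal level 16.9 and 35.2 CPM in TREAT and 14.3 and 18.9 CPM in Vehicle. These ranges overlap, and the log2 difference of 0.42 ± 0.61 (SD, n = 4) was smaller than its spread between areas. Among the tumour region, the reactive glial cluster, cortex, hippocampus, thalamus and hypothalamus, the level of Fos was highest in the reactive glial cluster in each of the 4 areas, at 59.7 and 49.3 CPM in TREAT and 49.5 and 49.5 CPM in Vehicle.

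Nr4a1 had 32.2 and 39.5 CPM in the TREAT tumour region, against 35.1 and 62.4 CPM in TREAT neuronal regions. In Vehicle it had 103.1 and 61.5 CPM in the tumour region, against 61.3 and 40.5 CPM in neuronal regions. The tumour level was thus the lower of the pair in both TREAT areas and the higher in both Vehicle areas, and over all 4 areas the log2 difference was 0.14 ± 0.66 (SD, n = 4). In the cortex Nr4a1 stood at 73.8 and 86.6 CPM in TREAT and 76.6 and 54.4 CPM in Vehicle.

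**Figure D1:**
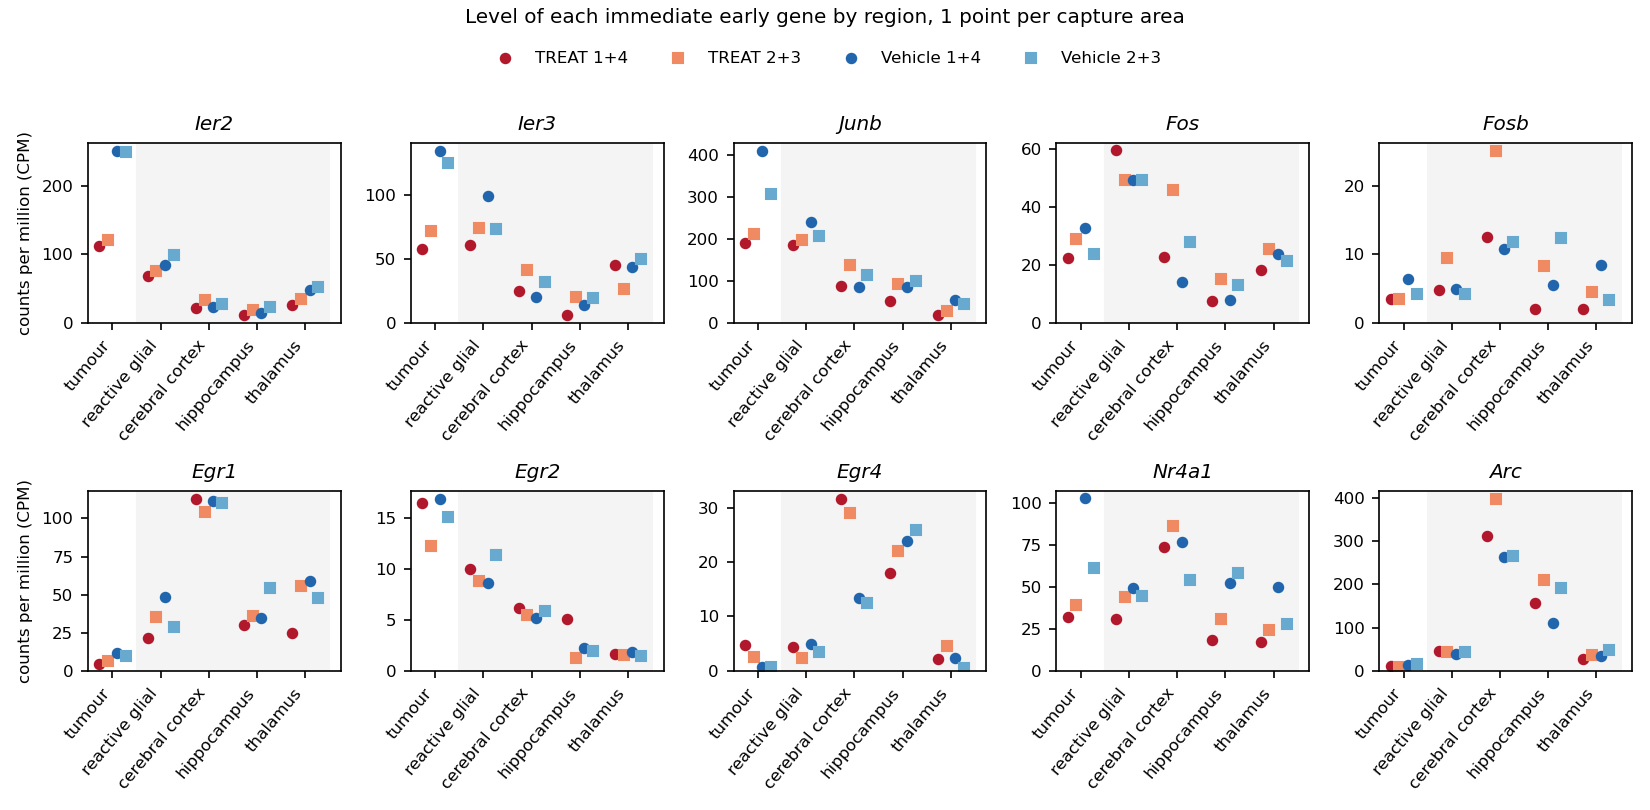
Level of each member in CPM (vertical axis, starting at 0, own scale per gene) in the tumour region, the reactive glial cluster and 3 neuronal regions (horizontal axis), with 1 point per capture area, TREAT in red shades left of Vehicle in blue shades. Ier2, Ier3, Junb and Egr2 are high at the left end of their panels, with Ier3 in TREAT slightly higher in the reactive glial cluster. Arc and Egr1 are high in the cortex, and Fos in the reactive glial cluster, where its 4 points lie between 49.3 and 59.7 CPM.

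Distance from the tumour region was measured in steps of the array, from each spot outside the region to the nearest tumour spot of the same piece. In TREAT 1+4 the rings join spots round the 4 tumour spots of its left piece with those round the 174 of its right piece. Outside the region, Junb and Ier2 were lower at 3 to 4 steps than at 1 step in every area. From the tumour region to 1 step Junb did not fall in TREAT, where the region had 189.4 and 213.1 CPM. Ier2 did not fall there in TREAT 1+4, whose region had 111.6 CPM. In Vehicle 1+4 Junb rose again, from 49.1 CPM at 5 to 8 steps to 72.0 CPM over 8 steps away. Junb had 199.3 and 219.8 CPM at 1 step in TREAT 1+4 and 2+3, against 338.3 and 261.0 CPM in Vehicle 1+4 and 2+3. At 3 to 4 steps it had 129.3 and 129.1 CPM in TREAT and 95.9 and 153.5 CPM in Vehicle, so the groups, apart at 1 step, overlapped there. Ier2 had 112.9 and 98.5 CPM at 1 step in TREAT and 175.7 and 184.5 CPM in Vehicle, and over 8 steps away it had 17.1 and 22.4 CPM in TREAT and 24.6 and 37.7 CPM in Vehicle.

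Fos was highest outside the tumour region but close to it. In TREAT 1+4 its level was 22.5 CPM in the tumour region, 52.3 CPM at 3 to 4 steps and 16.2 CPM over 8 steps away. In TREAT 2+3 it was 29.0 CPM in the tumour region, 61.7 CPM at 2 steps and 24.7 CPM over 8 steps away. In Vehicle 1+4 the level was 32.8 CPM in the tumour region, 39.4 CPM at 1 step and 16.1 CPM over 8 steps away, and in Vehicle 2+3 it was 23.8, 37.8 at 2 steps and 21.2 CPM. The peak of Fos lay at between 1 and 4 steps in each of the 4 areas. A higher level just outside was not particular to Fos. Ier3 in TREAT 1+4 and 2+3 had 60.4 and 82.6 CPM at 1 step, against 57.4 and 71.4 CPM in the tumour region.

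Within the cerebral cortex, Arc and Egr1 were lower close to the tumour region. Arc in cortical spots at 5 to 8 steps was 206.8 and 284.7 CPM in TREAT 1+4 and 2+3, against 91.5 and 213.1 CPM in Vehicle 1+4 and 2+3. Over 8 steps away it was 329.8 and 488.1 CPM in TREAT and 357.5 and 456.4 CPM in Vehicle. At 3 to 4 steps it was 158.7 CPM in TREAT 2+3, and 46.7 and 92.9 CPM in Vehicle 1+4 and 2+3, while TREAT 1+4 had only 3 cortical spots there. Arc thus rose with each distance class in TREAT 2+3, Vehicle 1+4 and Vehicle 2+3, and from 5 to 8 steps to over 8 steps in TREAT 1+4. The Vehicle values at 3 to 4 steps rest on 18 and 30 UMIs.

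Egr1 in cortical spots at 3 to 4 steps was 57.7 CPM in TREAT 2+3, and 36.3 and 61.9 CPM, on 14 and 20 UMIs, in Vehicle 1+4 and 2+3. Over 8 steps away it was 118.2 and 114.1 CPM in TREAT and 141.4 and 185.9 CPM in Vehicle, above the nearer class in each area that had one. Cortical Fos was lower over 8 steps away than at 3 to 4 steps in TREAT 2+3 and Vehicle 2+3, and higher in Vehicle 1+4. It was 47.6 CPM in TREAT 2+3 at 3 to 4 steps and 43.7 CPM over 8 steps away. The same classes had 5.19 and 17.5 CPM in Vehicle 1+4, and 34.1 and 23.2 CPM in Vehicle 2+3. The values at 3 to 4 steps rest on 33 UMIs in TREAT 2+3, 2 in Vehicle 1+4 and 11 in Vehicle 2+3, so the course in Vehicle 1+4 is uncertain.

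Markers of other cells moved with distance in the same cortical spots. The summed level of 12 neuronal markers at 3 to 4 steps was 11082 CPM in TREAT 2+3, and 8980 and 8245 CPM in Vehicle 1+4 and 2+3, and over 8 steps away it was 12096 CPM in TREAT 2+3, and 12244 and 11944 CPM in Vehicle 1+4 and 2+3. The 12 reactive glia markers summed to 4860 CPM at 3 to 4 steps in TREAT 2+3, and to 4729 and 4448 CPM in Vehicle, against 644.4, 871.7 and 2098 CPM over 8 steps away in the same areas. Every neuronal marker was above 0 in these sums. The part of this shift in the levels of Arc and Egr1 was not tested.

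**Figure D2:**
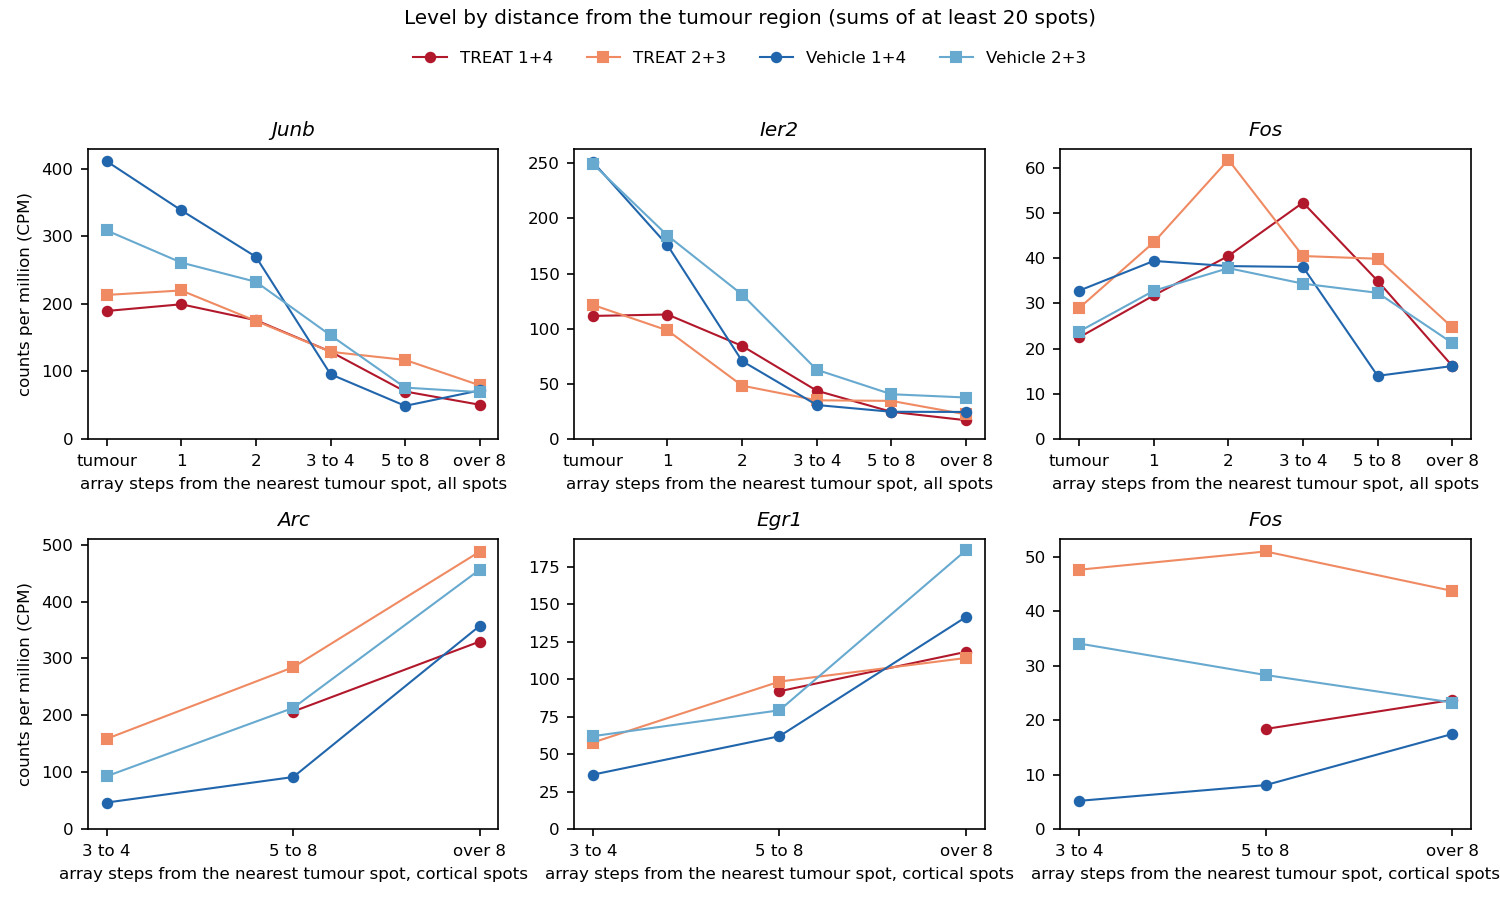
Level in CPM (vertical axes, from 0) against distance from the nearest tumour spot in array steps (horizontal axes), for all spots in the upper row and for cortical spots in the lower row, with 1 line per capture area and sums of at least 20 spots only. Junb and Ier2 are lower away from the tumour region, Fos peaks between 1 and 4 steps, and cortical Arc and Egr1 are lowest nearest the tumour region.

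The 2 pieces of an area could differ as much as areas did. Cortical Arc in TREAT 2+3 was 688.0 CPM in the left piece and 90.3 CPM in the right piece, and in Vehicle 2+3 it was 195.7 CPM in the left piece and 631.6 CPM in the right piece, where only 45 cortical spots were read. In TREAT 1+4 the pieces had 258.4 and 377.2 CPM, and in Vehicle 1+4 they had 271.9 and 249.3 CPM. Junb in the tumour region had 259.4 and 196.8 CPM in the pieces of TREAT 2+3, against 472.6 and 345.6 CPM in those of Vehicle 1+4 and 339.8 and 254.4 CPM in those of Vehicle 2+3, and TREAT 1+4 had 4 tumour spots in its left piece and 187.9 CPM in its right piece. In the cortex Junb had 79.5 and 95.9 CPM in the pieces of TREAT 1+4 and 148.8 and 127.5 CPM in those of TREAT 2+3, against 78.5 and 95.4 CPM in those of Vehicle 1+4 and 119.4 and 81.8 CPM in those of Vehicle 2+3.

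**Figure D3:**
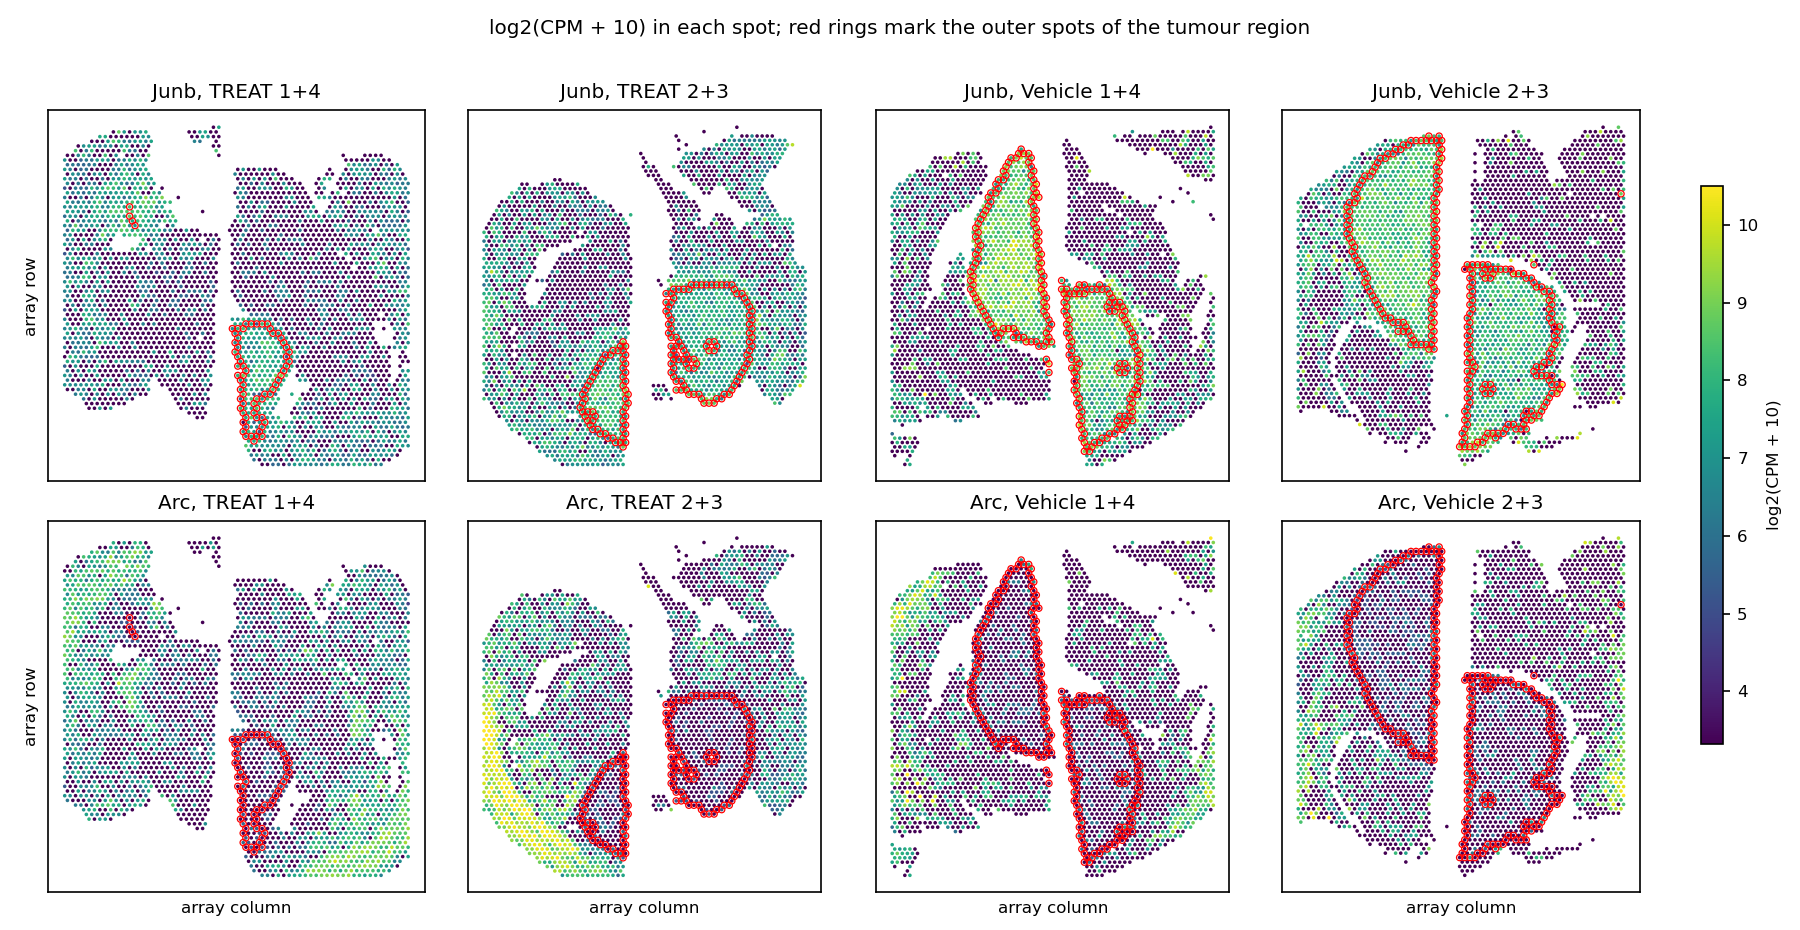
Junb (upper row) and Arc (lower row) in every spot with at least 500 UMIs, drawn at its array column and row, TREAT areas left of Vehicle areas, coloured by log2(CPM + 10), with red rings on the outer spots of the tumour region. Junb fills the ringed tumour in all 4 areas and more brightly in Vehicle, and Arc is dark inside the rings and bright in a band at the edge of the left piece of TREAT 2+3, whose cortex had 688.0 CPM.

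The comparison of TREAT with Vehicle asks how the hydrogel-treated tissue differed at the same day. In the tumour region 9 of the 10 members fell in TREAT and 1, Egr4, rose. Of 19660 genes tested there, 34.4% passed the same test, 21% lower and 13.4% higher, so calls were common in this region and 9 of 10 lower is to be read against 21%. The values below are CPM with TMM scaling, and tests are edgeR's quasi-likelihood test with Benjamini-Hochberg adjustment over all genes. Groups that do not overlap are described below without weight of their own. Over all genes this was counted in neuronal regions only, where 49.3% of genes had such groups. The median log2 fold change of all genes was 0.04 with TMM and 0.51 with library totals, and with library totals 8051 genes were higher and 1457 lower, against 2643 higher and 4125 lower with TMM.

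Ier2 had 96.6 and 101.7 CPM in the TREAT tumour region, against 305.1 and 284.1 CPM in the Vehicle tumour region. Both TREAT areas lay far below both Vehicle areas, and the log2 fold change was -1.57 ± 0.18 (SE, adjusted p = 6.03e-08). Ier3 had 49.6 and 59.7 CPM in TREAT, against 163.1 and 142.0 CPM in Vehicle (log2 fold change -1.47 ± 0.19 SE, adjusted p = 2.17e-07). Its groups did not overlap either.

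Junb had 163.9 and 178.3 CPM in the TREAT tumour region, against 499.0 and 351.4 CPM in the Vehicle tumour region (log2 fold change -1.31 ± 0.19 SE, adjusted p = 2.00e-06). The 2 Vehicle areas differed from each other by more than the 2 TREAT areas did. Nr4a1 had 27.8 and 33.0 CPM in TREAT, against 125.2 and 70.0 CPM in Vehicle (log2 fold change -1.67 ± 0.23 SE, adjusted p = 7.57e-06). It had the lowest log2 fold change of the 10 members, with a wide gap between its Vehicle areas. Egr1 had 4.12 and 5.17 CPM in TREAT, against 14.2 and 10.8 CPM in Vehicle (log2 fold change -1.38 ± 0.26 SE, adjusted p = 1.10e-04).

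These 5 members, Ier2, Ier3, Junb, Nr4a1 and Egr1, passed with library totals in place of TMM too. The other 4 that fell did not. Arc had 10.3 and 7.78 CPM in the TREAT tumour region, against 15.9 and 17.8 CPM in the Vehicle tumour region (log2 fold change -0.94 ± 0.24 SE, adjusted p = 0.00271, and 0.0790 with library totals). Fosb had 2.94 and 2.86 CPM in TREAT, against 7.67 and 4.78 CPM in Vehicle (log2 fold change -1.09 ± 0.31 SE, adjusted p = 0.00770, and 0.103 with library totals). Both were lower in the tumour region than in neuronal regions in every area. For Fosb the neuronal level was only 1.31 times the tumour level in Vehicle 1+4, and 5.17 times in TREAT 2+3. The 12 neuronal markers summed to 139.2 and 172.4 CPM in the TREAT tumour region and 180.2 and 133.3 CPM in the Vehicle tumour region, which overlap. The part of neuronal RNA in these values was not tested.

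Egr2 had 14.3 and 10.3 CPM in the TREAT tumour region, against 20.5 and 17.2 CPM in the Vehicle tumour region (log2 fold change -0.65 ± 0.23 SE, adjusted p = 0.0274, and 0.485 with library totals). Fos had 19.4 and 24.2 CPM in TREAT, against 39.8 and 27.1 CPM in Vehicle (log2 fold change -0.60 ± 0.21 SE, adjusted p = 0.0294, and 0.640 with library totals). The groups of both genes stood apart by a narrow gap.

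Egr4 rose in the tumour region. It had 4.12 and 2.19 CPM in TREAT, against 0.80 and 0.87 CPM in Vehicle, a log2 fold change of 1.78 ± 0.42 (SE, adjusted p = 0.00152). The level in the tumour region stayed below that of neuronal regions in both groups. Egr4 passed in all 15 alternatives in which it was tested, with log2 fold changes between 1.45 and 2.28.

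Depth and the makeup of the region moved with the group. The median tumour spot had 32942 and 36509.5 UMIs in TREAT, against 21382.5 and 22411 in Vehicle. Summed macrophage and microglia markers were 1197 and 1182 CPM in TREAT and 1185 and 1357 CPM in Vehicle, T and NK cell markers 138.4 and 117.6 CPM in TREAT and 159.0 and 126.9 CPM in Vehicle, and mesenchymal glioma markers 7915 and 5591 CPM in TREAT and 7305 and 7491 CPM in Vehicle. Oligodendrocyte markers were higher in TREAT, at 403.7 and 520.2 CPM, against 298.7 and 325.0 CPM in Vehicle. No marker of these lists was at 0 in any area, and their part in the results was not tested. With the reactive glial cluster added to the tumour region, all members kept their direction, and Arc, Egr1, Fos and Fosb no longer passed. Leaving out Vehicle 1+4 took Egr2, Fos and Fosb below the threshold.

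**Figure D4:**
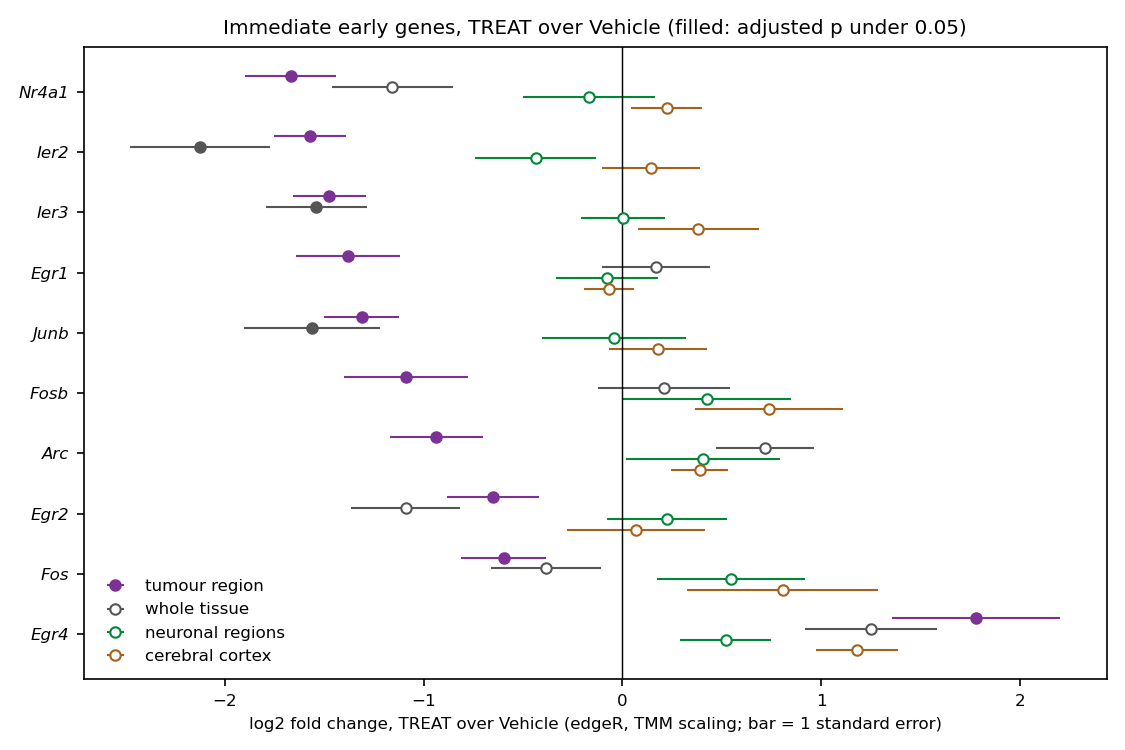
Log2 fold change of TREAT over Vehicle (horizontal axis) for each member (vertical axis) in the tumour region, the whole tissue, the neuronal regions and the cerebral cortex, with bars of 1 standard error and filled points where the adjusted p was under 0.05. All 10 points of the tumour region are filled, 9 of them left of 0, while no point of the neuronal regions or the cortex is filled.

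Over the whole tissue 3 of 10 members fell in TREAT and none rose, where 5.85% of 20265 genes passed, 4.94% lower and 0.903% higher. With library totals 2796 genes were higher and 626 lower, against 183 higher and 1002 lower with TMM, and 5 members passed, against 16.9% of genes. Ier2 had 29.6 and 61.0 CPM in TREAT tissue, against 187.0 and 208.1 CPM in Vehicle tissue (log2 fold change -2.13 ± 0.35 SE, adjusted p = 0.0313). Ier3 had 31.0 and 44.5 CPM in TREAT, against 108.7 and 110.4 CPM in Vehicle (log2 fold change -1.54 ± 0.26 SE, adjusted p = 0.0313). Junb had 68.7 and 132.4 CPM in TREAT, against 324.1 and 269.8 CPM in Vehicle (log2 fold change -1.56 ± 0.34 SE, adjusted p = 0.0425). In each of the 3, both TREAT areas lay below both Vehicle areas, which was not counted over all genes there.

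The area that the tumour region covers moved with these values. It gave 10.54% and 39.9% of all UMIs in TREAT 1+4 and 2+3, against 58.0% and 66.0% in Vehicle 1+4 and 2+3. Of the Ier2 UMIs, 34.8% and 72.0% lay in the tumour region in TREAT, and 89.5% and 87.2% in Vehicle. Of the Arc UMIs, 1.29% and 3.39% lay in the tumour region in TREAT, and 13.5% and 24.0% in Vehicle. Egr2 (log2 fold change -1.09, adjusted p = 0.0512), Nr4a1 (log2 fold change -1.16, adjusted p = 0.0557), Egr4 (log2 fold change 1.25, adjusted p = 0.0561) and Arc (log2 fold change 0.72, adjusted p = 0.0859) did not pass. With a replicate block, Egr2, Nr4a1, Egr4 and Arc passed too, 7 members in all, against 45% of genes, and with DESeq2 Egr2, Nr4a1 and Egr4 did, 6 members in all, against 25.6% of genes. No member passed when either Vehicle area was left out, or with a filter of at least 1 CPM in 2 sums or of at least 10 mean CPM.

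In neuronal regions none of the 10 members passed the edgeR test, where 0.00574% of 17407 genes did. At an unadjusted p under 0.05 the count was also 0 of 10 members, against 15% of genes, and DESeq2 called 0 of the 9 members to which it gave an adjusted p, against 1.78% of genes. Log2 fold changes ran between -0.44 for Ier2 and 0.55 for Fos, and the lowest adjusted p was 0.343, that of Egr4. In 8 of 10 members the 2 groups overlapped, while over all genes 49.3% had groups that did not overlap. The 2 members apart were Egr4, with 16.4 and 22.3 CPM in TREAT and 14.8 and 12.02 CPM in Vehicle, and Egr2, with 3.68 and 3.65 CPM in TREAT and 3.56 and 2.70 CPM in Vehicle. Arc had 116.8 CPM in TREAT 1+4 and 268.4 CPM in TREAT 2+3, and with TREAT 1+4 left out it passed (adjusted p = 0.0292). That fit has 1 TREAT area, which is assumed to vary as the 2 Vehicle areas do, and the same holds for the group that loses an area in each such fit. The mix of neuronal regions differed between areas, with 430 and 605 cortical spots in TREAT and 418 and 150 in Vehicle. Hypothalamic clusters had 675 and 17 spots in TREAT and 77 and 296 in Vehicle, and the striatum 212 and 164 spots in TREAT, against 4 spots in Vehicle 2+3 and none in Vehicle 1+4. Egr4 was at 48.3 and 18.9 CPM in the striatum of TREAT 1+4 and 2+3, and the part of this mix in the neuronal values was not tested.

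In the cerebral cortex alone none of the 10 members passed, where 0.0487% of 14367 genes did, 2 members had an unadjusted p under 0.05, against 14.2% of genes. DESeq2 called 0 of the 4 members to which it gave an adjusted p, against 1.88% of genes, and Egr4 was not among these 4. Egr4 had 31.4 and 28.8 CPM in TREAT cortex, against 13.5 and 12.7 CPM in Vehicle cortex. These area sums stood apart by group, on 254 and 265 UMIs in TREAT and 46 and 17 UMIs in Vehicle. The log2 fold change was 1.18 ± 0.21 (SE, unadjusted p = 2.69e-04, adjusted p = 0.102). Single pieces ranged more widely. Without TMM scaling they lay between 20.2 and 37.4 CPM in TREAT and between 10.4 and 18.2 CPM in Vehicle. Egr4 passed in 8 of the 14 alternatives that gave it an adjusted p, the replicate block among them (adjusted p = 7.76e-04), with adjusted p between 7.76e-04 and 0.112 over all of them and log2 fold changes between 0.97 and 1.28. Arc had 309.4 and 394.0 CPM in TREAT cortex and 267.1 and 270.4 CPM in Vehicle cortex (log2 fold change 0.39 ± 0.14 SE, adjusted p = 0.272), and its fold change over cortical spots more than 8 steps from the tumour region was -0.0042 on the log2 scale.

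Fos had 22.7 and 45.9 CPM in TREAT cortex and 14.4 and 28.4 CPM in Vehicle cortex (log2 fold change 0.81 ± 0.48 SE, adjusted p = 0.499), so its groups overlapped, and without Vehicle 2+3 it passed (adjusted p = 2.92e-04). Fosb had 12.5 and 25.0 CPM in TREAT cortex and 10.9 and 11.95 CPM in Vehicle cortex (log2 fold change 0.74 ± 0.37 SE, adjusted p = 0.409). Vehicle 2+3 had 150 cortical spots, and its macrophage and microglia markers summed to 2250 CPM there, against 909.3 and 969.4 CPM in TREAT 1+4 and 2+3 and 1139 CPM in Vehicle 1+4.

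In the hippocampus 9 members were tested, Egr2 being too low there, and none passed, where 0.197% of 12711 genes did. Nr4a1 had 17.4 and 30.3 CPM in TREAT hippocampus, against 53.5 and 62.6 CPM in Vehicle hippocampus (log2 fold change -1.30 ± 0.27 SE, adjusted p = 0.0613). It was the only one of the 9 with an unadjusted p under 0.05, against 18.4% of genes, and DESeq2 called it (adjusted p = 0.0145), 1 of 5 members with an adjusted p there, against 3.74% of genes. With 1 area left out, the log2 fold change of Nr4a1 ran between -1.75 and -0.93. Every member tested there except Arc was lowest in TREAT 1+4, whose 191 hippocampal spots all lie in its right piece.

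The difference of the TREAT effect between the tumour region and neuronal regions was tested as an interaction. None of the 10 members passed, where 0.0151% of 19904 genes did, 8 members had an unadjusted p under 0.05, against 17% of genes, and DESeq2 called 3, against 2.86% of genes. The interaction on the log2 scale was -1.23 ± 0.22 for Egr1, -1.35 ± 0.23 for Ier3 and -1.31 ± 0.23 for Nr4a1 (SE, adjusted p = 0.0596 each), and these were the 3 that DESeq2 called. It was -0.95 for Ier2 (adjusted p = 0.151), -1.01 for Junb (adjusted p = 0.213), -1.19 for Arc (adjusted p = 0.365), -0.72 for Egr2 (adjusted p = 0.319), -0.95 for Fos (adjusted p = 0.239), -1.39 for Fosb (adjusted p = 0.182) and 1.34 for Egr4 (adjusted p = 0.222). All 10 estimates had the sign of the member's change in the tumour region, whose values also enter the interaction. Single areas moved several of them: the estimate was -1.88 for Arc and -1.89 for Fosb without TREAT 1+4, and -0.39 for Arc and -0.69 for Fosb without TREAT 2+3. With 1 area left out it ran between 0.75 and 1.99 for Egr4, -1.39 and -0.50 for Fos, and -1.52 and -0.62 for Junb.

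Genes that act around the 10 members were described from 5 lists. In the tumour region 9 of 11 AP-1 partners fell in TREAT and none rose, with a median log2 fold change of -0.74, against 0.04 over all genes, of which 21% fell. Examples are Jdp2 (log2 fold change -1.31), Mafg (-1.22), Fosl1 (-1.28) and Batf3 (-0.99). Of the feedback inhibitors and RNA decay factors 12 of 20 fell and none rose, among them Zfp36l2 (-1.61), which binds AU-rich messenger RNAs, and Spry4 (-1.34), which damps receptor signalling. Of the other early transcription factors 5 of 9 fell, led by Csrnp1 (-1.30), Myc (-1.002), Klf2 (-1.33) and Klf4 (-0.95). Upstream kinases and factors fell in 9 of 18, with the transcription factors Mef2d at -1.35, Creb1 at -1.07 and Srf at -0.94. Of 11 activity effectors of neurons only Bdnf passed (-0.73, adjusted p = 0.0464). With library totals the counts lower were 4 of 11, 8 of 20, 4 of 9, 4 of 18 and 0 of 11 in the same order, against 7.41% of all genes, the effector list's median turned from -0.04 to 0.43, and Bdnf did not pass (adjusted p = 0.470).

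In the cerebral cortex Nr4a2, a nuclear receptor close to Nr4a1, was the single listed gene that passed, and it rose in TREAT (log2 fold change 1.85 ± 0.19 SE, adjusted p = 0.0311). The makeup of the cortex moved with it: at Leiden resolution 1.0 a cortical cluster with Nr4a2 and Arc among its leading genes had 167 and 348 spots in TREAT, against 94 and 1 in Vehicle, and the part of this in the cortical values of Nr4a2, Arc and the other members was not tested. Between regions, AP-1 partners were higher in the tumour region than in neuronal regions in all 4 areas for 10 of 11. Fosl1 was at 60.2 CPM in the tumour region and 2.70 CPM in neuronal regions on average. It is also among the mesenchymal glioma markers by which clusters were named, so its difference is not independent of that naming. Activity effectors of neurons were lower in all 4 areas for 10 of 11 measured, with Nrn1 at 3.44 CPM in the tumour region and 441.2 CPM in neuronal regions. Of the other early transcription factors 5 of 10 were higher and 4 lower in all 4 areas, of the feedback list 12 and 4 of 20, and of the upstream list 5 and 11 of 18, where over all genes 44.1% were higher and 35.7% lower. Mef2c of the upstream list is likewise a cerebral cortex marker used in the naming of clusters.

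The profile of each member over 52 sums, 1 per cluster and area, was set against those of 11263 genes by Pearson's r of log2 CPM. The sums share libraries and depth, so r is a description. Ier2 was most like Nans (r = 0.92), Socs1 (0.91) and Ybx3 (0.91), and Ier3 most like Nans (0.87). Junb was most like Tor2a (0.90), Egr2 most like Smc2 (0.80), Fos most like Nfkbib (0.82) and Egr4 most like Akap5 (0.82). Arc was most like Hs3st4 (0.87), Vxn (0.87) and Sbk1 (0.85), of which Vxn also led the cortical cluster. Egr1 was most like Ptms (0.75), Nr4a1 most like Uqcr11 (0.68) and Fosb most like Cckbr (0.61). Among the members, Ier2 and Ier3 had the highest r, 0.86, and Egr4 and Ier2 the lowest, -0.66, while Fos and Fosb, which share their Jun partners, had 0.07.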

How the data were processed

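The deposited files hold UMI counts per probe-targeted gene and spot, made by the authors with Space Ranger 2.1.1 on mm10, per the submitters' processing notes, which also list R 4.4.1 and Seurat. The counts were used as deposited, without 304 features of 32589 that the files mark as deprecated. Spots on tissue with at least 500 UMIs were kept and clustered with scanpy 1.11.5 (counts scaled to 10000 per spot, 2000 variable genes, 86 early genes left out, 30 principal components, 15 neighbours, Leiden resolution 0.6 with leidenalg 0.10.2). A cluster was named from at least 3 markers among its 50 leading genes. A spot is a small region, so no doublet caller was run.

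Counts were summed per area and region (at least 20 spots) and tested with edgeR 4.0.16 in R 4.3.3 (quasi-likelihood test, TMM, adjusted p under 0.05, Benjamini-Hochberg over all genes tested). DESeq2 1.42.0, other scalings, filters, clusterings, left-out areas and a replicate block were alternatives. On simulated counts of the tumour comparison (19290 genes) 62% of 2-fold and 95% of 4-fold changes were recovered. In the cerebral cortex (14035 genes) 59% of 2-fold changes were recovered, and in neuronal regions (16741 genes) 41%. Tumour and neuronal levels were compared per area, with no test. All 10 members are named. Related genes named are up to 4 per list by smallest p among those that passed, or by the largest difference between regions, except 1 gene that is not reported here, and the most similar genes are the highest in r outside the lists, at a mean of at least 10 CPM. The members and lists were chosen with earlier results of these data known. UMI totals per area bound the precision, and promoter windows came from RefSeq (GRCm38.p6).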

Additional observations from a re-analysis of the deposited data

Results flagged for a closer look

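UMIs of the members were also counted in spots outside the tissue outline, which none of the comparisons used. The 10 members together had 728 UMIs off tissue in TREAT 1+4 and 1269 in TREAT 2+3, against 1308 in Vehicle 1+4 and 1278 in Vehicle 2+3, over 1640, 1979, 1787 and 1504 spots. Relative to all UMIs there, this was 325.3 and 436.7 CPM in TREAT and 669.4 and 571.1 CPM in Vehicle. On tissue the same sum was 362.6 and 512.6 CPM in TREAT and 756.8 and 691.6 CPM in Vehicle, so for the sum the off-tissue level lay below the on-tissue level in each of the 4 areas. Single members differed. Egr4 was at 13.4 and 13.8 CPM off tissue in TREAT, against 14.4 and 12.3 CPM on tissue, and at 9.72 and 5.36 CPM off tissue in Vehicle, against 5.53 and 3.29 CPM on tissue. Fosb was higher off tissue than on tissue in all 4 areas, with 9.38 and 15.1 CPM off tissue in TREAT and 9.21 and 9.38 CPM off tissue in Vehicle. The part of such UMIs in the low levels on tissue, such as that of Egr4 in the Vehicle tumour region, was not tested.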

How the results depend on the processing

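In the tumour region all 10 members kept their direction in every alternative, and Ier2, Ier3, Junb and Nr4a1 passed in all 16. The count of 10 members became 6 with library totals, 4 with a filter of at least 10 mean CPM (where 7 were tested), 6 with the reactive glial cluster added (an alternative chosen after seeing the data), and 7 to 10 with 1 area left out. Over the whole tissue the count of 3 became 6 with DESeq2, 5 with library totals, 0 with a filter of at least 1 CPM in 2 sums, 0 with at least 10 mean CPM, 7 with a replicate block, and 0 to 6 with 1 area left out. In neuronal regions the count of 0 was 0 to 1 with 1 area left out. In the cortex it became 1 with at least 1000 UMIs per spot, 1 with the replicate block, 1 at each of Leiden resolutions 0.3 and 1.0, 1 with early genes kept in the clustering, and 0 to 2 with 1 area left out. The cortical log2 fold change of Arc turned to -0.0042 with only spots over 8 steps from the tumour region, also chosen after seeing the data. In the hippocampus the count became 1 with DESeq2, 1 with at least 1 CPM in 2 sums, and 0 to 4 with 1 area left out. For the interaction it became 3 with DESeq2, 3 with its size factors in edgeR, 3 at Leiden resolution 0.3, and 0 to 4 with 1 area left out. The cause of these moves was not tested. Each count is to be read against all genes. Over the whole tissue 25.6% of genes passed with DESeq2, 16.9% with library totals and 45% with the replicate block. In the tumour region 7.41% of genes were lower with library totals, and higher calls outnumbered these. Of the 6 members called there, 5 were lower and Egr4 was higher. DESeq2 called 3.74% of genes in the hippocampus and 2.86% for the interaction. Members higher in the tumour region than in neuronal regions numbered 4 to 5, and lower ones 4, with 1 area left out. Counts of all genes called moved by over 1.5 times as well. Over the whole tissue 1185 became 3974 with DESeq2, 3422 with library totals, 0 with each stricter filter, 9114 with the block and 7 to 4813 with 1 area left out. In the tumour region 6768 became 4063 with DESeq2, 2564 with at least 10 mean CPM and 2644 to 6758 with 1 area left out. In neuronal regions 1 became 220 with DESeq2 and 0 to 193 with 1 area left out. In the cortex 7 became 118 with DESeq2, 11 with at least 10 mean CPM, 52 with at least 1000 UMIs, 765 with the block, 103 and 164 at Leiden resolutions 0.3 and 1.0, 64 with early genes kept and 72 to 704 with 1 area left out. In the hippocampus 25 became 291 with DESeq2, 9 with library totals, 132 with at least 1 CPM, 61 with the block and 106 to 677 with 1 area left out. Interaction calls of 3 became 381 with DESeq2, 586 with its size factors, 650 at Leiden resolution 0.3 and 0 to 1675 with 1 area left out. Same-numbered areas were not shown to pair: their deviations correlated at 0.486 over the whole tissue, 0.244 in the cortex, 0.128 in the hippocampus, -0.155 in the tumour region and -0.209 in neuronal regions, and with crossed numbers 1977 genes were higher and 4394 lower in the tumour region. Tumour regions without clusters led by reactive glia were not run, since none was in the region. The interaction was fitted with capture area as a block, and no replicate block was added to it. On simulated counts 24% of 2-fold changes over the whole tissue and 26% of 2-fold interactions were recovered, so misses there are common at this depth and number of areas.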
